A study of Arabidopsis thaliana with 8 samples.

Results

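Iron-deficient leaves were set directly against copper-deficient leaves, so that neither metal shortage was read only through the unstressed plants. The comparison takes 4 of the 8 libraries of the series, 2 per deficiency, chosen by their labelled treatment. The RNA came from rosette leaves of Col-0, the standard laboratory accession of Arabidopsis thaliana. Seedlings grew for 12 d in soil, then in a hydroponic medium containing 1 µM copper sulfate for 10 d, and were treated for another 10 d. Iron-deficient plants then received no FeEDTA and kept 1 µM copper sulfate. Copper-deficient plants kept their iron, received no copper sulfate and were given 10 µM bathocuproine disulfonate, a copper chelator. Doubly deficient plants had both treatments, and control plants kept both metals without chelator. Leaves were cut 4 h after the lights came on. The labelled age of 20 d does not equal the sum of these periods. Nothing in the labels says that the libraries sharing a treatment are from separate cultures, so p-values measure only the spread between libraries, which may be technical. Libraries are called by group and replicate number, as in iron 1 and copper 2, numbered in the order of deposit. Their titles carry letters, A and B in iron deficiency, double deficiency and control but B and C in copper deficiency, and what the letters mark is not stated.

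Values are FPKM as the authors deposited them, fragments per length of transcript and per number of mapped fragments. Between 16842 and 18396 genes reached 1 FPKM per library. The files give relative and not absolute depth. With the deepest library at 1, it was 0.866 and 1.0 in iron deficiency, 0.761 and 0.929 in copper deficiency, 0.915 and 0.939 in double deficiency, and 0.807 and 0.732 in control. RNA composition differed between the libraries. The ribosomal RNA share of all FPKM was 5.94 and 1.66% in iron deficiency, against 0.474 and 0.076% in copper deficiency. Chloroplast transcripts took 9.39 and 6.85% in iron deficiency, against 11.2 and 0.278% in copper deficiency, where copper 2 stands apart. These chloroplast ranges overlap. The chloroplast transcript psbA had 1181 FPKM in iron 1, against 13.33 to 44.9 FPKM in the other libraries. The part of these differences in any gene's value was not tested, and counts that held under all 4 scalings are given beside the lists (the deposited values, median-ratio, quantile, and the sum over nuclear coding genes).

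Iron and copper share work in the leaf. Iron sits in heme, in iron-sulfur clusters and in iron superoxide dismutase, while copper sits in plastocyanin, in cytochrome oxidase and in the copper/zinc superoxide dismutases. When copper is short, Arabidopsis is known to use the factor SPL7, which binds GTAC motifs, to switch on FSD1 and microRNAs such as miR398. These microRNAs target transcripts of copper proteins that the cell can spare. When iron is short, a cascade of bHLH factors switches on BHLH38, BHLH39, BHLH100 and the IMA peptides, held back by the ubiquitin ligase BTS, while ferritins and other stores are turned down.

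The microRNA and its 4 classic target sites are shown as background to the superoxide dismutase results, and their part in these was not tested. They were read from the RefSeq reference genome (TAIR10.1), in DNA letters and 5′ to 3′. Capitals mark the seed (bases 2 to 8) in miR398b-3p and, in the sites, the bases that pair with it by Watson-Crick rules.
miR398b-3p, chr5:4691107-4691127, plus strand: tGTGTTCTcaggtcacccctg
CSD1, 5′ UTR, chr1:2827177-2827685, plus strand, split by an intron: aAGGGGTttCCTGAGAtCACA
CSD2, coding, chr2:12015572-12015593, plus strand: tgcGGGTGACCTGgGaAACAtA
CCS, coding, chr1:4267521-4267542, minus strand: CAttGGGaGACCTGgGAACACt
COX5B-1, 5′ UTR, chr3:5299204-5299225, plus strand: aAGGtGTGACCTGAGAAtCACA
By Watson-Crick rules the sites pair at 17 bases in CSD1, 16 in CSD2, 17 in CCS and 19 in COX5B-1. G:U pairs add 4 in CSD2 and 1 in CCS. In all but the CSD1 site, 1 further base of the transcript lies opposite no base of the microRNA. The other small letters in the sites are G:U pairs or mismatches, with 4 mismatches in CSD1, 1 in CSD2, 3 in CCS and 2 in COX5B-1.

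The 250 bases before the annotated start are shown for FSD1 and BHLH100, the genes with the largest fall and the largest rise among nuclear genes above 0 in all 8 libraries. Capitals mark GTAC, the core that SPL7 binds, and CACGTG, the G-box that bHLH factors bind. Both motifs read the same on both strands, and they do not overlap here.
FSD1, chr4:12887012-12887261, minus strand: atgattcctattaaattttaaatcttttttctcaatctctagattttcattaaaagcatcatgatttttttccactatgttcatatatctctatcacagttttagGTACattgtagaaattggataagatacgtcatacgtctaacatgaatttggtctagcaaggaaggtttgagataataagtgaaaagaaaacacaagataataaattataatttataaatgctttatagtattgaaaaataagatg
BHLH100, chr2:17199455-17199704, minus strand: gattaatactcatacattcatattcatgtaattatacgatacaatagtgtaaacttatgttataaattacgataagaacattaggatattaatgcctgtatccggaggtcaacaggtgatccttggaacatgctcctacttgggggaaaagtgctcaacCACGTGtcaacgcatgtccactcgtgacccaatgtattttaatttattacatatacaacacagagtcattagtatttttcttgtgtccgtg
GTAC stands in 34.3% of all 27443 such windows of the genome and CACGTG in 6.49%. Of the list of leaf iron response genes, 4 of 13 windows hold CACGTG (BHLH38, BHLH100, BTS and OPT3), and of the copper deficiency response genes 0 of 11 do. GTAC stands in 4 of 11 copper response windows (36.4%) and in 3 of 13 iron response windows. The windows of the iron storage list hold GTAC in 5 of 12 (41.7%) and CACGTG in 2 of 12 (FER3 and FER4). A match is a run of letters and not a shown binding site.

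Iron-deficient and copper-deficient leaves differed at 6703 of 19171 tested genes (35.0%), 5252 higher (27.4%) and 1451 lower (7.57%) in iron deficiency. Here and below a gene is called, and said to be higher or lower, when its adjusted p from limma is under 0.05. Groups are said not to overlap when both values of 1 group lie above both of the other. With 2 libraries per group this says little by itself, and the share of all genes for which it holds is not given. Differences are iron minus copper deficiency on the log2(FPKM + 1) scale ± standard error, which understates the change of low genes. The median difference of all genes was 0.27. Most weight goes to nuclear genes of at least 300 bp above 0 in all 8 libraries, of which 6285 of 17243 were called (36.4%), 4929 higher (28.6%) and 1356 lower (7.86%). By size, 1316 of these were higher and 400 lower by at least 1, and 84 were higher and 23 lower by at least 3. How the calls divide depends on the scaling, with 78.4% of all calls higher in iron deficiency on the deposited values, 48.9% after median-ratio, 46.3% after quantile and 88.2% after nuclear coding scaling. Under all 4 scalings 2096 nuclear genes were higher and 932 lower. With each of the 8 libraries left out in turn, 2051 were higher and 606 lower in every fit. Of these fits the one without iron 2 made the fewest calls, 2198 higher and 1026 lower. With only the 4 libraries compared 2508 nuclear genes were higher and 612 lower. With the title letter as a block fewer genes were called, but copper 2 is the only library with letter C. Copper deficiency then rests on copper 1 alone, so an effect of the letter cannot be told apart from the loss of a library.

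**Figure D1:**
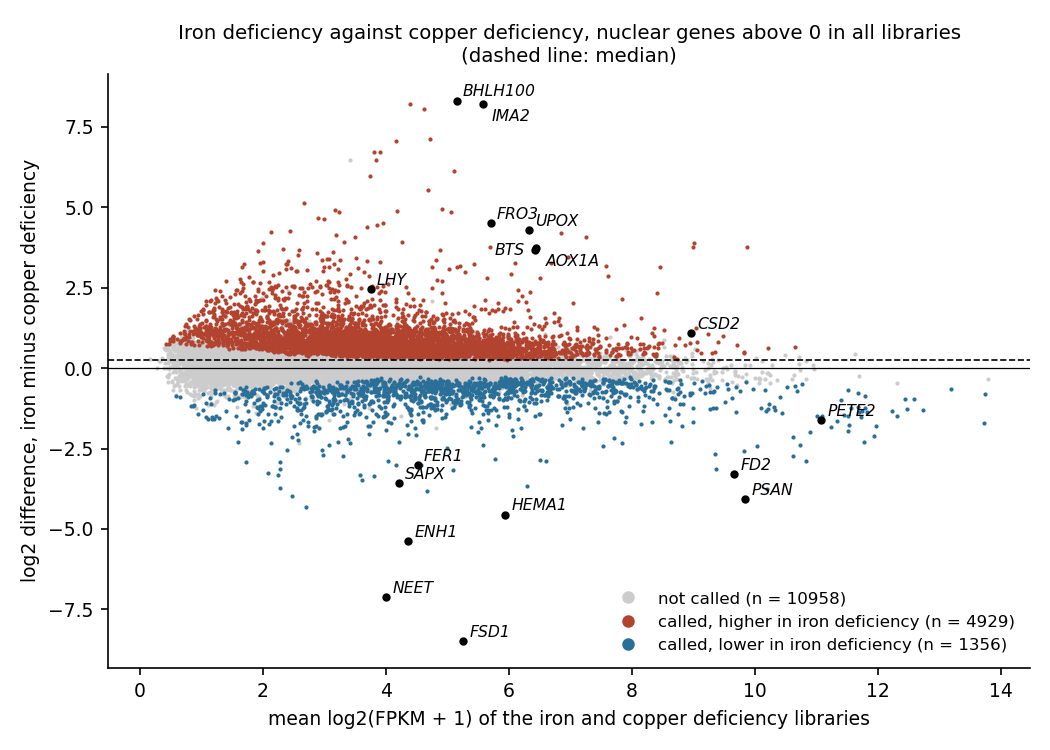
Log2 difference between iron and copper deficiency (y axis) against the mean log2(FPKM + 1) of the 4 libraries of these groups (x axis) for nuclear genes above 0 in all libraries; each point is a gene, and the dashed line is the median. Iron response genes such as BHLH100 lie far above 0, FSD1 and NEET far below, and photosynthesis genes such as PSAN and PETE2 fill the lower right.

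Outside that class 1928 genes were tested and 418 called, of which 408 were listed at 0 in at least 1 library. Both iron-deficient libraries were at 0 in 83 called genes and both copper-deficient ones in 185. Of these 268 genes, 75% share bases with another annotated gene, against 28.2% of the tested nuclear genes above 0 in all libraries. The library kit kept no strand, and reads of overlapping genes cannot be told apart, so values at 0 are given per library and without a fold.

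Superoxide dismutase transcripts stood far apart between the deficiencies. FSD1, the iron superoxide dismutase of the chloroplast and cytosol, had 1.83 and 0.460 FPKM in iron deficiency, against 734 and 711 FPKM in copper deficiency. In double deficiency it had 0.327 and 0.894 FPKM, against 400.1 and 256 FPKM in control. Every library without iron was thus near 0 and the copper-deficient libraries stood above both controls. The difference was -8.48 ± 0.36 (adjusted p = 4.39e-05), the largest fall among nuclear genes above 0 in all libraries.

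The copper/zinc enzymes lay the other way. CSD2, the chloroplast enzyme, had 668 and 789 FPKM in iron deficiency, against 322 and 355 FPKM in copper deficiency (1.1 ± 0.18, adjusted p = 0.0064). CSD1, the cytosolic enzyme, had 513 and 548 FPKM in iron deficiency, against 301 and 349 FPKM in copper deficiency (0.71 ± 0.13, 0.00813). Neither pair of groups overlapped. Doubly deficient leaves had 711 and 738 FPKM of CSD2, against 595 and 847 FPKM in control. For CSD1 they had 688 and 599 FPKM, against 449 and 510.4 FPKM in control. The copper-deficient libraries were the lowest of the 8 for both genes. CCS, the chaperone that loads copper into these enzymes, had 163 and 187 FPKM in iron deficiency, against 57.0 and 71.0 FPKM in copper deficiency (1.44 ± 0.17, 0.00216), with 184 and 181 FPKM in double deficiency and 99.7 and 133 FPKM in control. Here iron deficiency stood above and copper deficiency below both controls.

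COX5B-1 (AT3G15640), a nuclear subunit of mitochondrial cytochrome oxidase, was not called. It had 50.8 and 64.0 FPKM in iron deficiency, against 63.3 and 69.9 FPKM in copper deficiency, and the ranges overlapped (-0.22 ± 0.13, adjusted p = 0.246). With median-ratio and quantile scaling, COX5B-1 was lower in iron deficiency (-0.51, adjusted p = 0.0214, and -0.40, 0.0434), the direction opposite to CSD1, CSD2 and CCS. Of the microRNA precursors, MIR398a and MIR398b were listed at 0 in all 8 libraries and MIR398c at 102 FPKM in copper 1 only, so the files give no usable level of the microRNA.

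**Figure D2:**
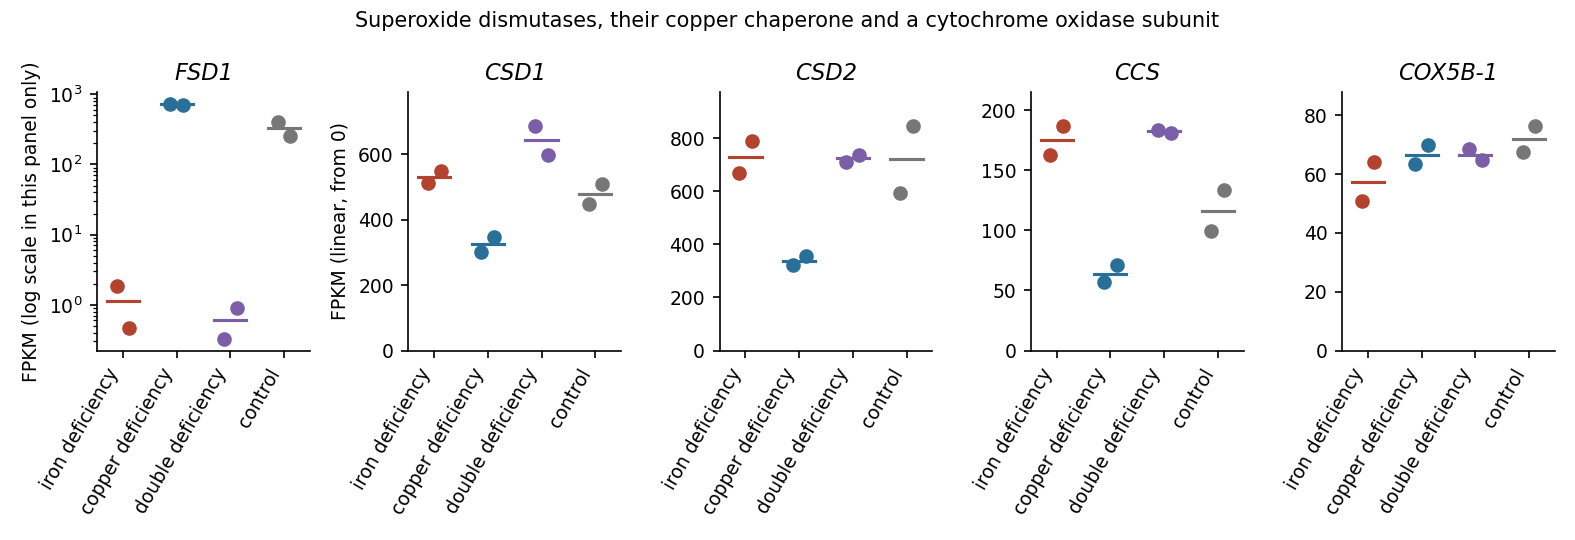
FPKM of each library (points; bars are the means of 2 libraries) for FSD1 on a log axis and for CSD1, CSD2, CCS and COX5B-1 on linear axes from 0, by treatment. FSD1 is below 2 FPKM in the 4 libraries without iron, and the copper-deficient libraries are the lowest for CSD1, CSD2 and CCS but not for COX5B-1.

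The summed superoxide dismutase message overlapped between the groups while its makeup did not. FPKM is per length, so the 7 genes can be added, a sum chosen after the values were seen. The sum was 1455 and 1665 FPKM in iron deficiency, against 1634 and 1732 in copper deficiency, and these ranges overlap. FSD1 made up 0.126 and 0.0276% of it in iron deficiency, against 45 and 41% in copper deficiency. In double deficiency its share was 0.0187 and 0.0534%, against 23.3 and 13.5% in control. The remaining 4 members were not called. CSD3, the peroxisomal copper/zinc enzyme, had 69.7 and 86.2 FPKM in iron deficiency, against 63.4 and 71.4 FPKM in copper deficiency (0.20 ± 0.12, adjusted p = 0.249), and was higher in iron deficiency with nuclear coding scaling (0.39, 0.0282). FSD2 and FSD3, the plastid nucleoid enzymes, differed by 0.15 ± 0.11 (adjusted p = 0.336) and -0.09 ± 0.11 (0.557), and the mitochondrial manganese enzyme MSD1 by -0.06 ± 0.14 (0.776). The signs of all 4 turned under at least 1 scaling. FSD3 was lower in iron deficiency with median-ratio (-0.37, 0.0365) and quantile scaling (-0.36, 0.0298).

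Of the known copper deficiency response, 2 of 8 tested genes were higher and 3 lower in iron deficiency, with a list median of -0.32 relative to all genes. Counts of this and the later lists stand against 27.4% higher and 7.57% lower over all genes. SPL7, the regulator itself, had 11.1 and 12.6 FPKM in iron deficiency, against 4.82 and 6.08 FPKM in copper deficiency (1.00 ± 0.15, adjusted p = 0.00455), and doubly deficient leaves had 10.4 and 9.23 against 6.02 and 5.42 FPKM in control. The groups did not overlap, and SPL7 was higher in each library without iron than in each with it. YSL2, a transporter of metal-nicotianamine complexes, had 0.285 and 0.196 FPKM in iron deficiency, against 2.56 and 2.56 FPKM in copper deficiency (-1.52 ± 0.32, 0.0147), with 0.868 and 0.451 in double deficiency and 1.72 and 0.507 FPKM in control. CCH, a cytosolic copper chaperone, had 159.5 and 167 FPKM in iron deficiency, against 203 and 275 in copper deficiency (-0.53 ± 0.14, 0.0309). The copper importer COPT2 had 5.43 and 8.71 FPKM in iron deficiency, against 5.11 and 6.22 FPKM in copper deficiency. These ranges overlap and COPT2 was not called (0.25 ± 0.29, 0.538). In double deficiency it stood at 10.4 and 12.7 FPKM, against 4.55 and 2.48 FPKM in control.

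The calls on YSL2 and CCH were less firm than those on SPL7 and FSD1. YSL2 lost its call without iron 1 (adjusted p = 0.0524), iron 2 (0.0704), copper 1 (0.0567) or copper 2 (0.0549). CCH lost it without iron 1 (0.114), iron 2 (0.0968) or copper 2 (0.0539), without double 1 or 2 (0.0632 and 0.0629), and without control 1 or 2 (0.0556 and 0.0557). The other calls of the list were SPL7, FSD1 and the importer COPT1. COPT1 was higher by 0.37 ± 0.11 (0.0382) and lost its call without iron 2 (0.16), copper 1 (0.101), copper 2 (0.105), double 1 (0.0663) or double 2 (0.0659). The count lower fell to 1 without iron 1, iron 2 or copper 2. Under all 4 scalings SPL7 was higher and 2 genes were lower. The regulator CITF1, the reductase FRO5 and the importer ZIP2 of this list stood below 0.2 FPKM in every library and were not tested.

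Among copper microRNA targets and copper proteins 4 of 11 tested genes were higher and 2 lower in iron deficiency, and under all scalings 3 were higher and 1 lower. The higher ones were CSD1, CSD2, CCS and LAC4, a laccase of lignin formation. LAC4 differed by 0.77 ± 0.23 (adjusted p = 0.0427) and lost its call without any library but the controls (0.0669 to 0.166). The lower ones were the plastocyanins, the copper carriers between cytochrome b6f and photosystem I. PETE2, the main leaf form, had 1127 and 1337 FPKM in iron deficiency, against 3334 and 4289 FPKM in copper deficiency (-1.62 ± 0.17, adjusted p = 0.00134). PETE1 had 302 and 358 FPKM in iron deficiency, against 458 and 439 FPKM in copper deficiency (-0.45 ± 0.10, 0.02), a call lost without iron 1 (0.0527) or copper 1 (0.0723) and under nuclear coding scaling. The groups overlapped for neither. PETE1 made up 21.2 and 21.1% of plastocyanin FPKM in iron deficiency, against 12.1 and 9.28% in copper deficiency. The plastocyanin sum of 3792 and 4728 FPKM in copper deficiency overlapped that of control, at 3785 and 4049 FPKM.

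Of copper delivery genes 4 of 10 tested members were higher in iron deficiency, under every scaling and with each library left out. None was lower on the deposited values, but 3 were with median-ratio and with quantile scaling. The list median relative to all genes was -0.07, and 27.4% of all genes were higher on the deposited values. HMA5, a copper-exporting ATPase known from roots, had 7.32 and 8.97 FPKM in iron deficiency, against 0.378 and 0.465 FPKM in copper deficiency (2.68 ± 0.18, adjusted p = 0.000255). Control leaves, at 0.330 and 0.509 FPKM, were as low as copper-deficient ones. HCC2, a cytochrome oxidase assembly homologue, had 13.9 and 17.1 FPKM in iron deficiency, against 3.34 and 6.27 FPKM in copper deficiency (1.55 ± 0.25, 0.00618). RAN1, which loads copper into ethylene receptors, differed by 1.01 ± 0.10 (0.00119) and the chloroplast pump HMA1 by 0.77 ± 0.11 (0.00447). The chloroplast copper pumps PAA1 (AT4G33520) and PAA2 (AT5G21930) and the chaperone ATX1 (AT1G66240) were not called.

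Leaf iron response genes were higher in iron deficiency in 12 of 12 tested members, under every scaling and with each library left out, and the list median less that of all genes was 4.09. The bHLH factors come first. BHLH100 had 631 and 638 FPKM in iron deficiency, against 0.269 and 2.13 FPKM in copper deficiency (8.32 ± 0.44, adjusted p = 0.000105). BHLH39 had 346 and 375 FPKM in iron deficiency, against 0.338 and 0.118 FPKM in copper deficiency (8.20 ± 0.12, 6.77e-07). BHLH38 had 626 and 678 FPKM in iron deficiency and was listed at 0 in both copper-deficient libraries. BHLH39 and BHLH100 stood below 3 FPKM in each library with iron. BHLH38 and BHLH39 are close paralogs side by side, so their sum is surer than their shares, and no library had a value above 0 for BHLH101. BHLH38 also shares 386 bases with PIP5K4, which is listed at 0 in each library without iron and above 0 in each library with it. The part of read assignment in the listed 0 of BHLH38 was not tested.

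The IMA peptides, short peptides that promote iron uptake and whose symbols the reference does not carry, followed. IMA2 (AT1G47395) had 799.5 and 843 FPKM in iron deficiency, against 0.927 and 3.0 FPKM in copper deficiency (8.21 ± 0.31, 2.82e-05). IMA1 (AT1G47400) had 594 and 634 FPKM in iron deficiency, against 0 and 3.55 FPKM in copper deficiency. Of the effectors, the ferric reductase FRO3 of mitochondria had 244 and 253 FPKM in iron deficiency, against 6.60 and 14.6 FPKM in copper deficiency (4.52 ± 0.30, 0.000273). BTS, the ubiquitin ligase that restrains the response, had 316 and 316 FPKM in iron deficiency, against 15.0 and 34.9 FPKM in copper deficiency (3.72 ± 0.38, 0.00127). OPT3, which loads iron into the phloem, had 561 and 581 FPKM in iron deficiency, against 48.4 and 81.6 FPKM in copper deficiency (3.16 ± 0.23, 0.000357). For BTS, FRO3 and the repressor PYE copper 2 was above copper 1 (34.9 against 15.0, 14.6 against 6.60 and 11.2 against 4.73 FPKM), far below iron deficiency in each case.

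The factors upstream of these differed by at most 0.57, and none was called with only the 4 libraries compared. Of 5 tested, BHLH34, BHLH104, BHLH115 and BHLH121 were higher and ILR3 was not called (-0.12 ± 0.07, adjusted p = 0.247), though lower with median-ratio (-0.41, 0.0113) and quantile scaling (-0.29, 0.023). BHLH115 led with 60.6 and 55.4 FPKM in iron deficiency, against 36.1 and 41.4 FPKM in copper deficiency (0.57 ± 0.11, 0.00927). None of these 4 calls held under all scalings, and only 1 call was left without iron 1, iron 2, copper 1 or copper 2. Root-type uptake genes were called in 3 of 8 tested members, all higher and under every scaling. FRO2, the root surface reductase, had 14.7 and 15.2 FPKM in iron deficiency, against 0.466 and 0.916 FPKM in copper deficiency (3.25 ± 0.17, 0.000107). The iron importer IRT1 had 9.89 and 8.53 FPKM in iron deficiency, against 0.265 and 0 FPKM in copper deficiency. The ubiquitin ligase BTSL1 (AT1G74770) had 20.2 and 22.8 FPKM in iron deficiency and was listed at 0 in copper deficiency, while AT1G74750, which overlaps it, was listed at 0 in iron deficiency. Of 4 root markers CASP1, COBL9 and RHD6 stood below 1 FPKM in every library. PYK10, the other, had 34.6 and 20.2 FPKM in iron deficiency, against 10.8 and 4.71 FPKM in copper deficiency, and the list summed to 35.16 and 20.69 FPKM in iron deficiency, against 11.55 and 5.18 FPKM in copper deficiency. Their part in this result was not tested.

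**Figure D3:**
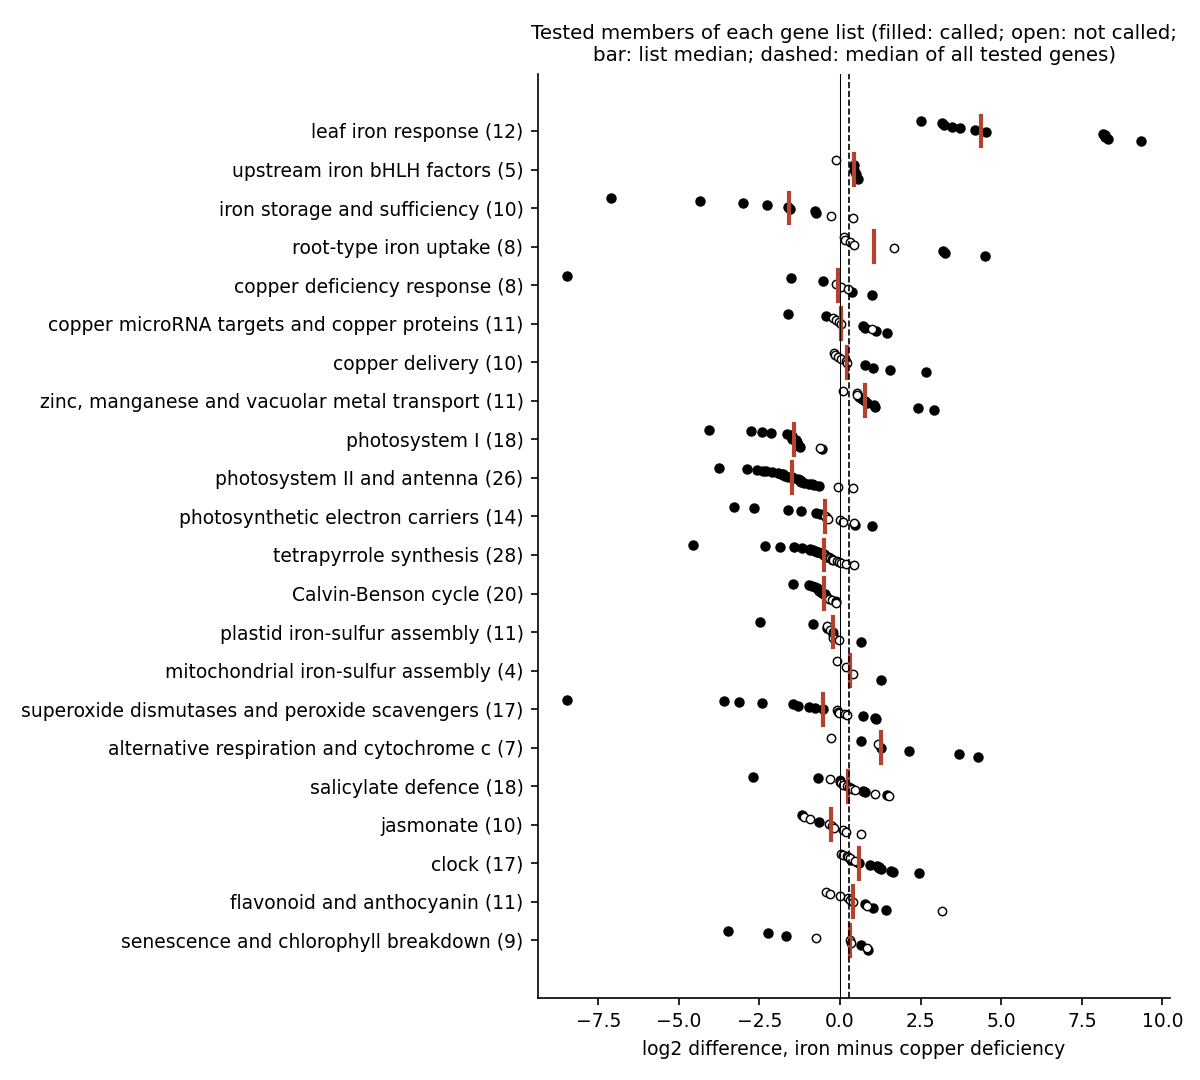
Log2 difference, iron minus copper deficiency, of each tested gene in 22 lists (filled points called, open points not called, red bars list medians, dashed line the median of all tested genes; numbers in brackets count tested members). The leaf iron response lies wholly to the right, both photosystems almost wholly to the left, and the copper lists spread to both sides of 0.

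The other genes among the 10 largest rises have less settled roles. AT1G07373, a noncoding RNA on chromosome 1 (17392374 to 17393026) in the neighbourhood of IMA1 (17385707 to 17386485), had 402 and 399 FPKM in iron deficiency, against 0.433 and 0.594 FPKM in copper deficiency (8.05 ± 0.09, adjusted p = 4.3e-07). It shares no base with another annotated gene. AT2G14247, with no function in the reference, differed by 7.13 ± 0.35 (8.25e-05) and the P-loop hydrolase AT2G18193 by 7.05 ± 0.18 (7.01e-06). The paralogs AT1G12030 and AT1G62420, both of the DUF506 family, differed by 6.73 ± 0.12 (1.8e-06) and 6.48 ± 0.30 (6.18e-05). The HSP20-like chaperone AT5G51440 differed by 6.72 ± 0.12 (1.8e-06) and the RING protein AT1G24580 by 6.12 ± 0.23 (2.65e-05). All 10 were below 5 FPKM in both copper-deficient libraries and above 130 FPKM in both iron-deficient ones.

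Iron storage and sufficiency genes were lower in 8 of 10 tested members, none being higher, and the list median relative to all genes was -1.86. Of these, 6 held under all scalings and 6 with each library left out. NEET, an iron-sulfur protein, had 0.257 and 0.476 FPKM in iron deficiency, against 272 and 129.7 FPKM in copper deficiency (-7.11 ± 0.38, adjusted p = 0.000114). The ferritin FER1, which stores iron in plastids, had 6.36 and 7.87 FPKM in iron deficiency, against 75.7 and 54.3 FPKM in copper deficiency (-3.01 ± 0.25, 0.000637). Neither gene's groups overlapped, while copper deficiency overlapped control, which had 211 and 239 FPKM of NEET and 92.4 and 59.3 FPKM of FER1. A noncoding RNA, AT5G01595, shares 1334 of the 2099 bases of FER1, and reads of the pair cannot be told apart. The ferritin FER4 had 0 FPKM in iron 1 and iron 2, against 21.7 and 17.3 FPKM in copper deficiency, and it overlaps AT2G40290, which is above 36 FPKM in every library. FER3, another ferritin, had 12.1 and 18.8 FPKM in iron deficiency, against 20.3 and 17.3 FPKM in copper deficiency, and was not called (adjusted p = 0.368). The nicotianamine synthase NAS3 differed by -2.28 ± 0.29 (0.00256), the transporter YSL1 by -1.61 ± 0.22 (0.00353) and VTL1, a vacuolar iron transporter-like protein, by -1.57 ± 0.25 (0.00563). NAS4 of the same synthase family was higher in iron deficiency, with 130.4 and 133 FPKM against 10.7 and 16.2 FPKM in copper deficiency (3.23 ± 0.21, 0.000233).

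Zinc, manganese and vacuolar metal transport genes were higher in 8 of 11 tested members and lower in none (median 0.51 relative to all genes). Of these, 4 held under all scalings and 4 with each library left out, and the count was 5 without iron 1 and 4 without iron 2. ZIF1, which moves nicotianamine into vacuoles, had 176 and 183 FPKM in iron deficiency, against 17.2 and 30.5 FPKM in copper deficiency (2.91 ± 0.25, adjusted p = 0.000748). NRAMP4, which releases vacuolar iron, had 160.0 and 168 FPKM in iron deficiency, against 27.8 and 31.9 FPKM in copper deficiency (2.42 ± 0.15, 0.000202). Its partner NRAMP3 had 7.14 and 8.94 FPKM in iron deficiency, against 3.58 and 3.18 FPKM in copper deficiency (1.04 ± 0.15, 0.00367). The groups did not overlap for any of these 3 genes.

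Nuclear photosynthesis genes were lower in iron deficiency across both photosystems. In photosystem I 17 of 18 tested genes were lower (median -1.70 relative to all genes; 16 under all scalings) and in photosystem II with its antenna 24 of 26 (median -1.74; 18 under all scalings), with 16 and 22 holding when each library was left out. With only the 4 libraries compared, 10 genes of photosystem I and 14 of photosystem II were lower. PSAN, which docks plastocyanin on the lumen side, had 182 and 275 FPKM in iron deficiency, against 3509 and 3996 FPKM in copper deficiency (-4.06 ± 0.21, adjusted p = 9.27e-05). It shares 39 bases with AT5G64030, which is listed at 0 in both copper-deficient libraries and at 29.2 and 35.6 FPKM in the iron-deficient ones. PSAF, its partner at the same site, had 498 and 736 FPKM in iron deficiency, against 3966 and 4174 FPKM in copper deficiency (-2.75 ± 0.19, 0.00031). The ferredoxin-docking subunit PSAD2 differed by -2.42 ± 0.17 (0.000323). In photosystem II LHCB1.4, an antenna protein with near-identical paralogs, had 226 and 446 FPKM in iron deficiency, against 3882 and 4774 FPKM in copper deficiency (-3.76 ± 0.32, 0.000678), and the small subunit PSBTN differed by -2.90 ± 0.23 (0.000565). PSBS, the sensor of photoprotective quenching, was not called, with 1593 and 1744 FPKM in iron deficiency, against 1665 and 1799 FPKM in copper deficiency. Mesophyll markers moved with these genes, 3 of 4 lower, and their summed FPKM was 22090 and 27750 in iron deficiency, against 51030 and 48960 in copper deficiency. As these markers are photosynthesis genes themselves, fewer mesophyll cells and less message per cell cannot be told apart in bulk leaves.

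Electron carriers divided, with 7 of 14 lower and 2 higher. FD2, the main leaf ferredoxin, had 219 and 304 FPKM in iron deficiency, against 3027 and 2122 FPKM in copper deficiency (-3.29 ± 0.22, adjusted p = 0.000273). FD1, the minor leaf ferredoxin, had 924 and 1100.1 FPKM in iron deficiency, against 519 and 493 FPKM in copper deficiency (0.99 ± 0.14, 0.00417). FD1 thus made up 80.8 and 78.4% of leaf ferredoxin FPKM in iron deficiency, against 14.6 and 18.9% in copper deficiency, a share chosen after the values were seen. PETM (AT2G26500), a small subunit of cytochrome b6f, differed by -2.66 ± 0.15 (0.000138). Of all carriers 1 was higher and 6 were lower under all scalings. The second higher call, the cyclic flow protein PGRL1B, was lost without iron 2 (0.0773) or copper 1 (0.0541).

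Tetrapyrrole synthesis, the route to chlorophyll and heme, was lower in 16 of 28 tested genes and higher in none (median -0.76 relative to all genes; 14 under all scalings, 13 with each library left out). With nuclear coding scaling 2 were higher. HEMA1, which opens the pathway, had 9.18 and 14.7 FPKM in iron deficiency, against 318 and 274 FPKM in copper deficiency (-4.55 ± 0.23, adjusted p = 9.11e-05). The protochlorophyllide reductases PORB and PORA differed by -2.32 ± 0.15 (0.000261) and -1.87 ± 0.22 (0.00214), and the vinyl reductase DVR by -1.44 ± 0.12 (0.000729). Calvin-Benson cycle genes were lower in 11 of 20 and higher in none (median -0.78; 7 under all scalings, 5 with each library left out), with 6 lower without iron 1 and 7 without copper 2. With only the 4 libraries compared, 8 tetrapyrrole genes and 1 Calvin-Benson cycle gene were lower. RPE, the pentose epimerase, had 203 and 246 FPKM in iron deficiency, against 624 and 607 FPKM in copper deficiency (-1.46 ± 0.12, 0.000608), and the phosphatase SBPASE differed by -0.88 ± 0.16 (0.00911).

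The remaining genes among the 10 largest falls touch the plastid and redox proteins. ENH1, a rubredoxin-like plastid protein, had 1.38 and 3.34 FPKM in iron deficiency, against 139 and 125 FPKM in copper deficiency (-5.37 ± 0.27, adjusted p = 9.04e-05). MEE3, a small MYB-related protein, had 0.266 and 0.672 FPKM in iron deficiency, against 25.7 and 30.2 FPKM in copper deficiency (-4.31 ± 0.18, 4.39e-05). AT3G43670, annotated as a copper amine oxidase, had 0.230 and 0.441 FPKM in iron deficiency, against 17.8 and 15.7 FPKM in copper deficiency (-3.74 ± 0.15, 3.7e-05). A gene for a copper enzyme was thus near 0 without iron and near the control level (19.5 and 20.2 FPKM) without copper. AT3G21460, a glutaredoxin, had 0.302 and 0.507 FPKM in iron deficiency, against 23.5 and 19.2 FPKM in copper deficiency (-3.99 ± 0.15, 2.48e-05). Its level was 7.59 and 7.79 FPKM in double deficiency, against 19.6 and 18.4 FPKM in control. AT3G55240, with no molecular function in the reference, differed by -3.81 ± 0.17 (5.02e-05).

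Several heme enzymes that remove hydrogen peroxide were lower in iron deficiency. In the list of superoxide dismutases and peroxide scavengers 9 of 17 tested genes were lower and 3 higher (CSD1, CSD2 and CAT2), all 12 under every scaling and with each library left out. The stromal ascorbate peroxidase SAPX, a heme enzyme, had 3.95 and 4.79 FPKM in iron deficiency, against 64.2 and 62.4 FPKM in copper deficiency (-3.59 ± 0.10, adjusted p = 1.23e-05). The cytosolic form APX1 had 67.6 and 93.0 FPKM in iron deficiency, against 459 and 394 FPKM in copper deficiency (-2.41 ± 0.16, 0.000281). The catalases, heme enzymes of peroxisomes, diverged. CAT3 (AT1G20620) had 184 and 267 FPKM in iron deficiency, against 2202 and 1722 FPKM in copper deficiency (-3.13 ± 0.21, 0.000258). CAT2 (AT4G35090) had 823 and 929.6 FPKM in iron deficiency, against 495 and 348 FPKM in copper deficiency (1.07 ± 0.19, 0.00759). CAT2 made up 81.3 and 77.3% of catalase FPKM in iron deficiency, against 18.2 and 16.7% in copper deficiency, another share chosen after the values were seen.

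Iron-sulfur assembly genes of plastids were called in both directions. In that list 3 of 11 tested genes were lower and 1 higher, and under all scalings 2 were lower and 1 higher, while 7 were lower with median-ratio and 6 with quantile scaling. SUFB, the scaffold, had 11.3 and 13.7 FPKM in iron deficiency, against 80.9 and 67.1 FPKM in copper deficiency (-2.47 ± 0.17, adjusted p = 0.000327). The plastid desulfurase NFS2 was higher by 0.66 ± 0.14 (0.0138), a call lost without iron 2 (0.0559) or copper 1 (0.0596), and 6 plastid genes were lower without copper 1. In mitochondria 1 of 4 was called (3 with nuclear coding scaling), the desulfurase NFS1, with 102 and 113 FPKM in iron deficiency, against 48.4 and 40.1 FPKM in copper deficiency (1.27 ± 0.11, 0.000816). Alternative respiration and cytochrome c genes were higher in 5 of 7 (4 under all scalings). AOX1A, the alternative oxidase that bypasses cytochrome oxidase, had 287 and 331 FPKM in iron deficiency, against 21.1 and 25 FPKM in copper deficiency (3.69 ± 0.12, 1.8e-05). UPOX (AT2G21640), a mitochondrial marker of oxidative stress, had 336 and 372 FPKM in iron deficiency, against 15.5 and 19.0 FPKM in copper deficiency (4.29 ± 0.12, 1.19e-05). Control leaves, at 26.4 and 25.6 FPKM of AOX1A and 18.1 and 16.3 FPKM of UPOX, lay with the copper-deficient ones. The external dehydrogenase NDB2 differed by 2.15 ± 0.17 (0.000532).

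Clock genes were higher in iron deficiency in 11 of 17 tested members and lower in none (median 0.33 relative to all genes), 7 of them under all scalings and 7 with each library left out, with 7 without iron 2, control 1 or control 2. LHY, a morning factor, had 28.9 and 32.3 FPKM in iron deficiency, against 4.84 and 4.69 FPKM in copper deficiency (2.45 ± 0.10, adjusted p = 4.39e-05). Its partner CCA1 differed by 1.28 ± 0.14 (0.00145), the related RVE1 by 1.63 ± 0.17 (0.00147) and the daytime repressor PRR5 by 1.59 ± 0.23 (0.00405). All libraries were cut at the same labelled hour.

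Senescence and chlorophyll breakdown genes were called both ways, 2 of 9 higher and 3 lower, all under every scaling. Over all genes 27.4% were higher and 7.57% lower, and the list median relative to all genes was 0.04. NYC1, a chlorophyll b reductase, had 2.38 and 2.96 FPKM in iron deficiency, against 41.4 and 38.1 FPKM in copper deficiency (-3.47 ± 0.13, adjusted p = 2.71e-05). SEN1 and the NAC factor NAP differed by -2.23 ± 0.14 (0.000223) and -1.69 ± 0.23 (0.00347). The pheophytinase PPH and the magnesium-dechelatase NYE1 were higher by 0.65 ± 0.09 (0.00372) and 0.87 ± 0.20 (0.0183), the second call lost without iron 2 (0.102) or copper 1 (0.0816).

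The counts of the defence and pigment lists stand against 27.4% higher and 7.57% lower over all genes. Of 18 salicylate genes 3 were higher and 2 lower, and 1 in each direction held under all scalings and with each library left out. PR1, a marker of salicylate signalling, had 1.93 and 2.27 FPKM in iron deficiency, against 19.8 and 18.7 FPKM in copper deficiency (-2.71 ± 0.41, adjusted p = 0.00479), with 54.4 and 36.3 FPKM in control above both. ICS1, which makes salicylate, differed by 0.77 ± 0.12 (0.00559). SARD1, a factor that promotes ICS1 and shares 640 bases with GIP2, differed by 1.45 ± 0.36 (0.0244) and lost its call without iron 1 (0.0779), iron 2 (0.12) or copper 1 (0.0806). Without copper 2, 6 salicylate genes were higher, and with nuclear coding scaling 5. Of 10 jasmonate genes 2 were lower and none higher, 1 of them under all scalings. The synthesis enzyme AOS differed by -0.64 ± 0.11 (0.00674). The repressor JAZ1 differed by -1.19 ± 0.34 (0.0388) and lost its call without iron 2 (0.187), copper 1 (0.148), copper 2 (0.0797), control 1 (0.0631) or control 2 (0.0631). Of 11 flavonoid genes 3 were higher, 1 of them under all scalings, and 1 was higher without iron 1 or copper 2. PAP1 (AT1G56650), the anthocyanin regulator, had 78.8 and 58.5 FPKM in iron deficiency, against 28.1 and 21.9 FPKM in copper deficiency (1.41 ± 0.22, 0.00484).

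Some markers of other cell types were called as well, and their part in the results above was not tested. The lists are small, and their counts stand against 27.4% higher and 7.57% lower over all genes. Of 4 dividing-cell markers 2 were higher in iron deficiency, under every scaling. The mitotic cyclin CYCB1;1 had 19.7 and 21.6 FPKM in iron deficiency, against 0.714 and 0.664 FPKM in copper deficiency (3.68 ± 0.19, adjusted p = 0.0001), and the kinase CDKB2;1 differed by 1.34 ± 0.19 (0.00372). The summed level of the list was 47.65 and 54.94 FPKM in iron deficiency, against 24.52 and 6.211 FPKM in copper deficiency. Of 5 tested meristem and flower markers SEP3 was higher (1.69 ± 0.31, 0.00845), the list summing to 5.584 and 6.557 FPKM in iron deficiency, against 0.5294 and 1.766 FPKM in copper deficiency, with AP1, LFY and WUS below 0.3 FPKM throughout. The root marker PYK10 was higher by 1.75 ± 0.50 (0.0376) and lost its call without iron 1 (0.17), iron 2 (0.0764), copper 2 (0.152), double 1 or double 2 (0.0602 each). Epidermis markers were higher in 2 of 3, guard cell markers higher in 1 and lower in 2 of 5, phloem markers higher in 1 and lower in 1 of 3, and 1 of 2 tested xylem markers was lower. Under all scalings 0 epidermis, 1 guard cell, 1 phloem and 1 xylem call held, and 2 of the 3 mesophyll calls. None of the guard cell and xylem calls held with each library left out. Guard cell markers summed to 1420 and 1625 FPKM in iron deficiency, against 2076 and 2201 FPKM in copper deficiency. Epidermis markers summed to 218.3 and 236.9 FPKM in iron deficiency, against 158.8 and 127.8 FPKM in copper deficiency. The xylem sum was 9.261 and 10.68 FPKM in iron deficiency, against 14.23 and 13.75 FPKM in copper deficiency, and the phloem sum was 113.1 and 131 FPKM in iron deficiency, against 133 and 138 FPKM in copper deficiency.

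In most called genes the control leaves lay with the copper-deficient ones. On a line with 0 at the iron-deficient mean and 1 at the copper-deficient mean, control fell within 0.25 of the copper-deficient end, or beyond it, in 5101 of the 6285 called nuclear genes (81.2%). It fell more than 0.25 from both ends in 1133 (18%) and at the iron-deficient end in 51 (0.811%). The count at the iron-deficient end was not stable, with 11 without iron 1 or iron 2, 105 without copper 1, 98 without copper 2, 112 without control 1 and 82 without control 2.

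**Figure D4:**
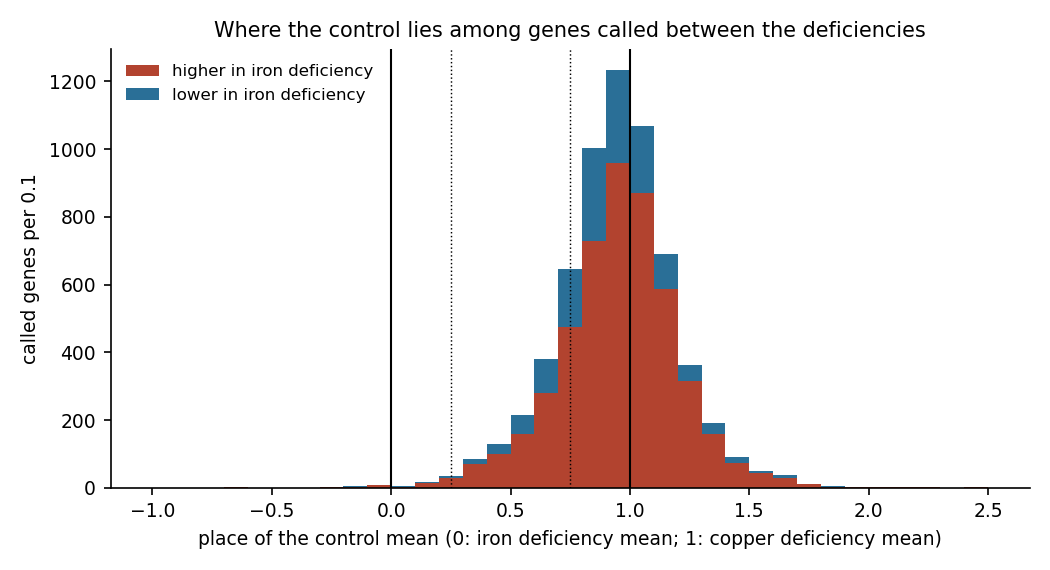
Number of called nuclear genes (y axis, per 0.1) by the place of the control mean on a line from the iron-deficient mean (0) to the copper-deficient mean (1), coloured by the direction of the difference; dotted lines mark 0.25 from either end, and values beyond the axis are drawn in the end bins. Most genes pile up around 1, and only 51 lie at the iron-deficient end.

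Among these 51 genes, 43 were higher and 8 lower in iron deficiency, and CSD1 and CSD2 were of the first kind. The defensin PDF1.3 had 2.47 and 4.37 FPKM in iron deficiency, against 0.0241 and 0.0204 FPKM in copper deficiency (2.08 ± 0.40, adjusted p = 0.0106), with 1.07 and 0.488 FPKM in double deficiency and 5.50 and 2.19 FPKM in control. Its call was lost without iron 2 (0.0654). AT1G36622, with no function in the reference, had 2.78 and 1.91 FPKM in iron deficiency, against 0.385 and 0.287 FPKM in copper deficiency (1.31 ± 0.20, 0.00495), with 7.38 and 8.72 FPKM in double deficiency and 2.16 and 1.82 FPKM in control. Both were named for their values after these were seen. Double deficiency was nearer to iron than to copper deficiency in 45 of the 51, and this share was not taken over all called genes. Of all 6285 called nuclear genes, 97.4% had the same sign in double deficiency minus control as in iron minus copper deficiency.

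In 98 called genes control lay between the deficiencies and at least 0.5 (log2) from each, 80 of them higher and 18 lower in iron deficiency, a count that was 62 without iron 2, 161 without copper 1 and 194 without copper 2. It was 250 with a pseudocount of 0.1 and 28 with one of 5. Double deficiency was nearer to iron than to copper deficiency in 91 of them, again without that share over all called genes. FSD1 and CCS belong here. GRP3S, a glycine-rich protein, had 1746 and 2292 FPKM in iron deficiency, against 189 and 94.0 FPKM in copper deficiency (3.90 ± 0.39, adjusted p = 0.00122), with 3154 and 2638 FPKM in double deficiency and 214 and 369.6 FPKM in control. AT5G57785, with no function in the reference, rose furthest of the 98 (4.89 ± 0.51, 0.00144). AT4G23680, annotated in the polyketide cyclase and lipid transport superfamily, followed at 4.63 ± 0.21 (5.4e-05). CML41, a calmodulin-like protein, had 3.36 and 3.47 FPKM in iron deficiency, against 39.1 and 49.2 FPKM in copper deficiency (-3.34 ± 0.36, 0.00159), with 7.30 and 2.83 FPKM in double deficiency and 32.1 and 23.3 FPKM in control. AT2G25625 differed by -3.31 ± 0.28 (0.000665) and AT1G14250, annotated as a nucleoside phosphatase, by -1.98 ± 0.28 (0.00357). The calcium-binding EF-hand protein AT1G21550 had 2.69 and 3.28 FPKM in iron deficiency, against 13.1 and 13.7 FPKM in copper deficiency (-1.86 ± 0.15, 0.000599), and its doubly deficient value of 10.8 and 8.97 FPKM lay above the control value of 7.95 and 6.71 FPKM, on the copper-deficient side.

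The remaining genes among the 5 largest such rises were the ribosomal RNA genes AT2G01010 and AT3G41768, which 1 library carried. AT3G41768 had 12372 and 972 FPKM in iron deficiency, against 368 and 175 FPKM in copper deficiency. Without iron 1 the differences were 1.91 (adjusted p = 0.0708) for AT2G01010 and 1.93 (0.0627) for AT3G41768, in place of 3.77 for both (0.0427 and 0.0407). Both calls were also lost without any of the other libraries except iron 2, with adjusted p of 0.063 to 0.158.

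Double deficiency against control shares no library with iron against copper deficiency, and the differences ran alike. Of the 6285 nuclear genes called, 6123 (97.4%) had the same sign in double deficiency minus control, against 82.2% of all 17243 nuclear genes and 73.4% of those not called. In that comparison 47.3% of nuclear genes were called, and of the 6285, 4998 (79.5%) were called in the same direction and 16 in the opposite one. Both comparisons took the spread of each gene from the same model of 8 libraries, so their calls are not independent. FSD1 differed by -7.66 ± 0.36 there, NEET by -7.13 ± 0.38 and BHLH100 by 8.58 ± 0.44, close to the values between the single deficiencies. CSD2 was an exception, at 0.03 ± 0.18 (adjusted p = 0.912) in double deficiency minus control and 1.1 ± 0.18 in iron minus copper deficiency. For AT3G21460 the difference was -1.20 ± 0.15 in double deficiency minus control and -3.99 ± 0.15 in iron minus copper deficiency. PDF1.3 turned round, at -1.37 ± 0.40 (0.0328) in double deficiency minus control. Whether the differences of single genes differ between these comparisons was not tested.

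**Figure D5:**
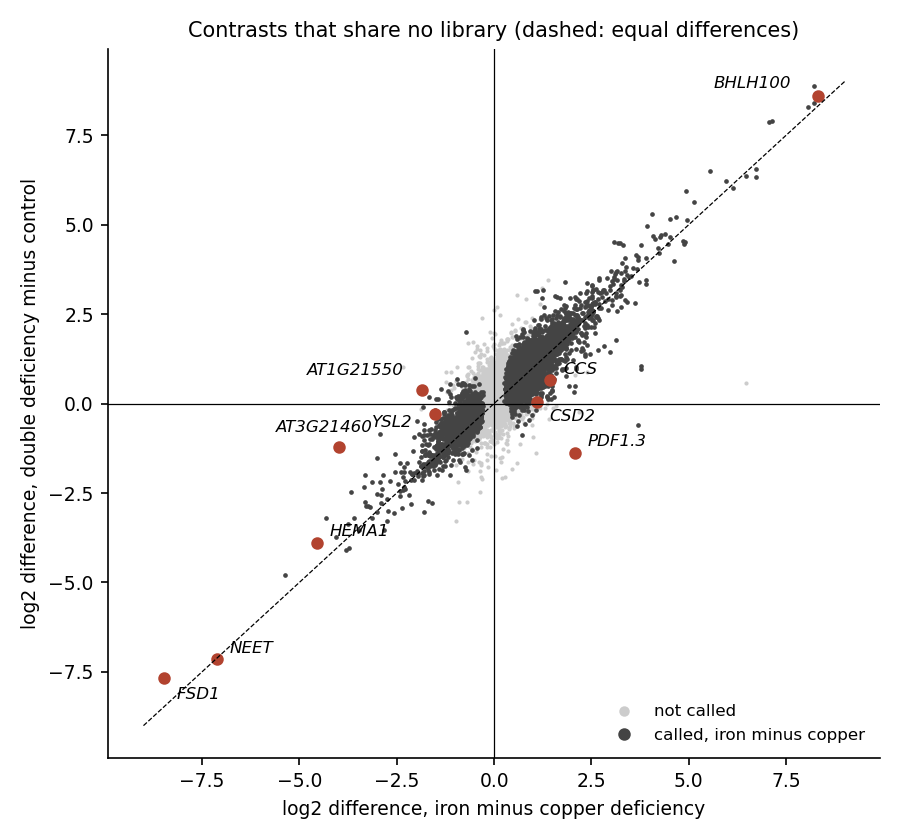
Log2 difference, double deficiency minus control (y axis), against log2 difference, iron minus copper deficiency (x axis), for nuclear genes above 0 in all libraries; black points are called on the x axis, and the dashed line marks equal differences. The called genes lie along the dashed line, while CSD2, PDF1.3, AT1G21550 and AT3G21460 lie away from it.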

How the data were processed

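RNA of 8 leaf libraries (4 groups of 2) was sequenced without strand. The authors deposited FPKM per gene with their bounds, per the file headers. Trimmomatic, TopHat2 2.1.1, Cufflinks and Cuffdiff are named in the submitters' processing notes. Genome build: not given in the sources used here. No scaling between libraries is stated. Of 38088 identifiers 99.2% were found in the reference annotation (RefSeq, TAIR10.1), and 99.9% of these had the same coordinates there. The symbols of IMA1, IMA2, UPOX, PETM, COX5B-1, CITF1 and BTSL1 are not in it and were given by locus. One entry in 1 library carried a failed status and was kept.

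A gene was tested if 2 or more libraries had 1 FPKM or more. The test was on log2(FPKM + 1), with limma 3.58.1 (lmFit, eBayes with trend; R 4.3.3), in 1 model of the 4 groups with 4 residual degrees of freedom. P-values were adjusted by the Benjamini-Hochberg method over all 19171 genes. The procedure was tested on simulated data. Relative depth was read from the deposited bounds in 10788 genes, and since no counts are given, no counting intervals were made. Lists (30 of 346 genes) are described by counts and medians, without a set test. Named genes are, among called nuclear genes, the 10 with the largest rise and fall, the leading called members of each list and those that carry its known role, the 5 largest rises and falls with control in between, and a panel of 20 copper and iron genes. The comparison, its members and the lists were chosen with earlier results of these data known.

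Alternatives were a pseudocount of 0.1 or 5, no filter or 5 FPKM, the nuclear class alone, 3 other scalings, only the 4 libraries compared, replicate blocks, and leaving out each library.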

Additional observations from a re-analysis of the deposited data

How the results depend on the processing

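Having 2 libraries per group limits every test here, and where 1 was left out the lone library was assumed to vary like the other groups. The block by title letter likewise rests copper deficiency on copper 1, since copper 2 is the only library with letter C. Counts of genes higher and lower in iron deficiency were 2826 and 2954 with median-ratio scaling and 2606 and 3022 with quantile scaling (2539 and 2855, and 2345 and 2910, among nuclear genes above 0 in all libraries), and 7473 such nuclear genes were higher with nuclear coding scaling; the cause was not tested. Fitting only the 4 libraries compared, with fewer degrees of freedom, called 3541 genes (2822 higher, 719 lower), 3120 nuclear genes (2508 and 612) and 104 list members, with control at the copper-deficient end in 2699 and at the iron-deficient end in 16. Deviations of same-numbered libraries correlated at 0.0888 to 0.195 (0.124 for iron and copper), so numbers were not taken to pair libraries. The replicate block by number called 6465 genes and 6054 nuclear genes, and the block by title letter 3380 genes (2635 higher, 745 lower), 3067 nuclear genes (2405 and 662) and 2573 with control at the copper-deficient end. Leaving out single libraries gave 3578 to 6126 called genes (2462 to 4859 higher, 815 to 1267 lower), 3224 to 5717 nuclear genes (2198 to 4543 and 715 to 1174), 140 to 155 list members, and control at the copper-deficient end in 2772 to 4637 and at the iron-deficient end in 11 to 112. Control at the iron-deficient end was found in 27 genes without a filter, 86 in nuclear genes alone and 102 with median-ratio scaling. The genes with control between the deficiencies numbered 250 with a pseudocount of 0.1 and 28 with one of 5, and 62 to 194 with libraries left out. The share of called nuclear genes with the same sign in double deficiency was 98.2% without a filter, 96.7% in nuclear genes alone, 95.1% with median-ratio, 94.9% with quantile and 98.2% with nuclear coding scaling, 98.8% with 4 libraries, 97.9% with the letter block and 97 to 98.7% with libraries left out. Among genes not called, signs turned as follows. With median-ratio and quantile scaling COPT2 was at -0.005 and -0.133 and FSD2 at -0.126 and -0.183, and CSD3 was at -0.09 with median-ratio scaling. With nuclear coding scaling PSBS was at 0.138, MSD1 at 0.132, FSD3 at 0.099 and ILR3 at 0.073, and with the letter block PSBS was at 0.063 and MSD1 at 0.144. With libraries left out COPT2 ranged from -0.047 to 0.548, PSBS from -0.12 to 0.011, MSD1 from -0.215 to 0.096, FER3 from -0.593 to 0.001 and FSD3 from -0.199 to 0.024. Of the values for single named genes under alternatives, 2097 kept their direction and side of the threshold, 163 lost the call (25 genes), 9 gained it (5 genes) and 18 reversed (8 genes).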

Other observations

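Among nuclear genes above 0 in all libraries, AT3G01345 had the largest difference that was not called (6.47 ± 2.5, limma adjusted p = 0.0908, but called with only the 4 libraries compared, at 0.00262). It had 98.0 and 101 FPKM in iron deficiency, against 0.102 and 0.166 FPKM in copper deficiency. In double deficiency it had 1.11 and 137 FPKM, against 0.192 and 109 FPKM in control, so it was near 0 in one library and about as high as in iron deficiency in the other of each of these groups.

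Of called nuclear genes 16 went one way between the single deficiencies and the other way in double deficiency against control, and the pair described here was chosen after the values were seen. ORA47, a factor of jasmonate signalling, had 1.93 and 1.68 FPKM in iron deficiency, against 3.81 and 3.36 FPKM in copper deficiency, and 12.7 and 16.4 FPKM in double deficiency, against 3.52 and 2.34 FPKM in control. ZIP4 (AT1G10970), a zinc transporter, had 11 and 10.8 FPKM in iron deficiency, against 7.61 and 6.22 FPKM in copper deficiency, and 2.64 and 3.15 FPKM in double deficiency, against 4.85 and 5.16 FPKM in control. The differences were -0.71 ± 0.20 (limma adjusted p = 0.039) and 1.99 ± 0.20 (0.000886) for ORA47, and 0.59 ± 0.14 (0.0228) and -0.63 ± 0.14 (0.0144) for ZIP4. Between the single deficiencies ORA47 lost its call without any library but the controls (0.0547 to 0.153), and ZIP4 lost it without iron 1 (0.0876), iron 2 (0.0879) or copper 2 (0.0861). Doubly deficient leaves had the highest ORA47 and the lowest ZIP4 values of the 8 libraries.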
